A study of Homo sapiens with 21 samples.

Results

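The regions described here are stretches of open chromatin that nearly every library of the series called as a peak and that none of the 3 libraries titled SORL1-A528T called. Peaks of all 21 libraries that shared at least 1 bp were merged into 166893 regions, of which 160166 lie on autosomes. A region was taken as missing from SORL1-A528T when 0 of its 3 libraries and at least 15 of the 18 other libraries called it. The rule found 552 regions, which is 1.20% of the 45954 autosomal regions called in at least 15 of the 18 other libraries. The other 45402 of these, called in 1 to 3 SORL1-A528T libraries, are named the other common regions below. The calls themselves chose the 552, so their absence from SORL1-A528T is a description and carries no test.

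The cells were microglia-like cells grown from H9 (WA09), an established human embryonic stem cell line, and each of 7 isogenic lines gave 3 libraries. H9 cells were edited with CRISPR/Cas9 from a guide plasmid and a single-stranded donor DNA, and the protocol gives the edits as homozygous. The SORL1-A528T line carries a coding change in SORL1, the endosomal sorting receptor, and SORL1-KO, listed in the protocol as SORL1R744X, carries a stop in the same gene. TREM2-R47H and TREM2-KO alter TREM2, a lipid-sensing receptor of microglia. CD33 SNP and INPP5D SNP carry a single-nucleotide change at CD33, which encodes an inhibitory receptor for sialic acids, and at INPP5D, which encodes a lipid phosphatase; for INPP5D, H9 is heterozygous G/A and was made homozygous A. WT is H9 without these edits. All lines passed through haematopoietic progenitors and 28 days of differentiation with IL-34, TGF-beta1 and M-CSF, with CD200 and CX3CL1 over the last 3 days, and 80000 sorted cells entered Omni-ATAC. The number of clones per line and whether the replicates were separate differentiations are not given in the sources used here, so p-values here speak of library-to-library spread, part of which may be technical. The genotype label of the 3 libraries titled SORL1-A528T names TREM2-KO, so every statement concerns libraries so titled. The libraries titled TREM2-KO called 448, 369 and 541 of the 552 regions in replicates 1, 2 and 3.

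ATAC-seq uses a transposase that cuts and tags DNA where no nucleosome covers it, so that promoters and enhancers in use appear as peaks of reads. Promoters of widely used genes are open in most cell types, whereas distal elements inside introns and between genes differ more between cell types and states. SORL1 carries cargo such as the amyloid precursor protein between endosomes and the Golgi, and variants of it are linked to Alzheimer's disease. In the brain, microglia are a major site of expression of many genes at Alzheimer's risk loci.

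Few of the missing regions lie at promoters, and 6 promoter windows under them are printed here as examples, not as a full set. A promoter window runs from 250 bases before to 50 after a gene start in RefSeq (GRCh38.p14). Of the 552 regions, 27 overlap 40 distinct windows, 24 of them of protein-coding genes. The 6 windows below belong to genes with a region called in at least 16 of the 18 other libraries: PCDH7 (chr4:30720119-30720418, plus strand), a cell-adhesion protocadherin; NAV2 (chr11:19344986-19345285, plus strand), a cytoskeleton regulator of neurite outgrowth; DACT1 (chr14:58637712-58638011, plus strand), an inhibitor of Wnt signalling that binds Dishevelled; ROR1 (chr1:63773767-63774066, plus strand), a receptor for WNT5A; UNC5C (chr4:95548924-95549223, minus strand), a netrin receptor; and FSTL1 (chr3:120450943-120451242, minus strand), a secreted follistatin-like glycoprotein. Sequences run 5′ to 3′ on the gene's strand. Capitals mark 4 motifs searched on both strands, namely the GC box GGGCGG, the CCAAT box CCAAT, the AP-1 site TGANTCA and the TEAD site GGAATG.
PCDH7: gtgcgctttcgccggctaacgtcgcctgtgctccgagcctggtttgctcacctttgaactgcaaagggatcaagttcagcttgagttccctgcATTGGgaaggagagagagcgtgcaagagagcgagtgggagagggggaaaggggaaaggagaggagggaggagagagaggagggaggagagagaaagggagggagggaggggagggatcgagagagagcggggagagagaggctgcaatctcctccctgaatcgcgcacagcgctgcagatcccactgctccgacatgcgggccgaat
NAV2: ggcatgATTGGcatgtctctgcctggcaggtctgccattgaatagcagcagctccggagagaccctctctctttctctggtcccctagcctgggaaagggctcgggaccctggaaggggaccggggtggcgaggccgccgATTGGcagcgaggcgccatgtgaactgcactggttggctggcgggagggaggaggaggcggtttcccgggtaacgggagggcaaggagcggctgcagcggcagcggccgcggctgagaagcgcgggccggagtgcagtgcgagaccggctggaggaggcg
DACT1: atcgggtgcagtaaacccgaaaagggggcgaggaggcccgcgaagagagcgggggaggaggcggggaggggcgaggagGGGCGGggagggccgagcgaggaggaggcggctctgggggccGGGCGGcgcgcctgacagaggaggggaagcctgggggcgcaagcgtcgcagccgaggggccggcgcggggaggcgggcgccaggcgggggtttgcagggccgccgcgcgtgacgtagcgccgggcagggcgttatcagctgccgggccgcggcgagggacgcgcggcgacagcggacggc
ROR1: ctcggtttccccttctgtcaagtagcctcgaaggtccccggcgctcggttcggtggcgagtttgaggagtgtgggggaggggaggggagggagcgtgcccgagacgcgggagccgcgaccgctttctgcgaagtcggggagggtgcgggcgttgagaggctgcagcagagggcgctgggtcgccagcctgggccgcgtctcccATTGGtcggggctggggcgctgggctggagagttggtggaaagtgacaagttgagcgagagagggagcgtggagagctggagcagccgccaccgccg
UNC5C: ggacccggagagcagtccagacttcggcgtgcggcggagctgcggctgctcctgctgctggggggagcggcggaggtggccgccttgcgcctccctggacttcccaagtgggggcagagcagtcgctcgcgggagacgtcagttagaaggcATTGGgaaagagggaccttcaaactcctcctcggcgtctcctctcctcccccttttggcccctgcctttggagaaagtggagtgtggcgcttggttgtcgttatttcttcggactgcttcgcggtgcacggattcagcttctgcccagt
FSTL1: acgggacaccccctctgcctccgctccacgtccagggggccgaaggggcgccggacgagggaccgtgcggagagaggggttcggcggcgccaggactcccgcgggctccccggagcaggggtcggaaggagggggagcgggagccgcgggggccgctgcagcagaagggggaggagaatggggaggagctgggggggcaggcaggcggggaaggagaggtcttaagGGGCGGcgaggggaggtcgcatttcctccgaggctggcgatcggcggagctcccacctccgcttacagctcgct

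The windows under missing regions resembled those under the other common regions in base composition. Their median GC content was 64.8% over 40 windows, against 65.3% over the 14904 windows under the other common regions and 58.7% over all 33477 windows on autosomes. A GC box stood in 70.0% of the 40 windows, in 68.3% of those under other common regions and in 45.0% of all. The CCAAT box stood in 40.0%, 35.5% and 34.4% of the same 3 sets. A single window of the 40 (2.50%) held an AP-1 site, against 4.55% and 7.69%, and a single one held a TEAD site, against 10.8% and 14.05%. Of the 6 windows printed, DACT1 and FSTL1 show GC boxes, and PCDH7, NAV2, ROR1 and UNC5C show CCAAT boxes read on the opposite strand as ATTGG. Other windows with a region called in at least 16 other libraries were not printed. Among them are MET, with GC boxes, and C3orf49, with 39% GC and none of the motifs. A match of letters is not evidence of a bound site. In all, 4.89% of missing regions overlapped a promoter window, against 21.01% of the other common regions.

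The missing regions were mostly distal. A region counts as a gene-end region when it comes within 1 kb of the first or last base of a protein-coding gene span, since the gene table used carries no strand. Of the 552, 37 (6.70%, 95% exact binomial interval 4.76% to 9.12%, counting error only) lay at a gene end, 219 (39.7%) inside a gene span away from its ends, and 296 (53.6%) outside gene spans. Among the other common regions the shares were 22.6% at a gene end, 38.7% inside and 38.7% outside. A total of 143 missing regions (25.9%) had no gene span within 100 kb, against 12.7% of the other common regions. For those outside gene spans, the median distance to the nearest gene was 95.5 kb, against 45.6 kb.

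**Figure D1:**
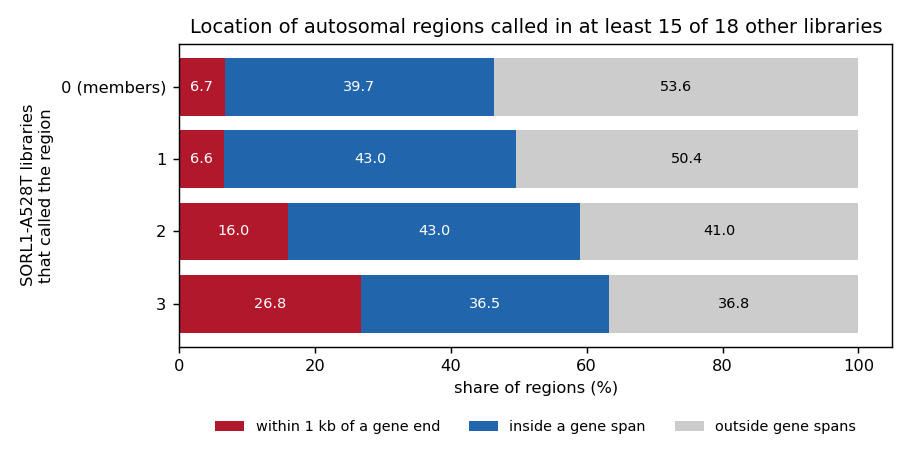
Share of autosomal regions called in at least 15 of 18 other libraries (x axis, %) that lie within 1 kb of a gene end, inside a gene span or outside gene spans, by the number of SORL1-A528T libraries that called them (y axis). The gene-end share is 6.7% for regions called in 0 SORL1-A528T libraries (the missing regions) and 6.6% for those called in 1, and 16.0% and 26.8% for those called in 2 and 3.

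This mix of locations was shared with regions that only 1 SORL1-A528T library called. Of those 2113 regions, 6.63% lay at a gene end, 43.0% inside and 50.4% outside a gene span. The regions just outside the rule were alike too. The 420 regions called in 0 SORL1-A528T and 14 other libraries had 5.24% at a gene end, a median width of 850 bp and a median list percentile of 34.3. The 846 called in 1 SORL1-A528T and 15 other libraries had 6.501%, 884 bp and 38.9. The 267 regions just inside, called in 0 SORL1-A528T and 15 other libraries, had 7.12%, 874 bp and 36.3. Values on the 2 sides of the threshold thus lay close together.

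The gene-end regions are given in the order of their place in the other lists. List position is given as a percentile, where 100 is the first peak of a library's list and 0 the last, as the lowest, median and highest value over the other libraries that called the region. The region at PCDH7 (chr4:30719200-30722550) stood highest of the 37 gene-end regions, at percentiles 24.2, 76.0 and 83.9 in the 16 other libraries that called it. At EDIL3, an integrin-binding matrix protein, the region (chr5:84381640-84385583) stood at 3.602, 64.0 and 84.0 in 16 libraries. At ACSS3, a mitochondrial acyl-CoA synthetase, the values were 1.29, 63.5 and 72.7 in 17 libraries. All 3 medians lie above the middle of the lists, and the lowest values at EDIL3 and ACSS3 lie near the end of a list.

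MET, the receptor for hepatocyte growth factor, had a missing region at chr7:116671610-116672796, with percentiles 3.27, 55.0 and 70.7 in 16 libraries. NAV2 (chr11:19344797-19347051) stood at 26.8, 57.8 and 79.5 in 17 libraries, and ROR1 (chr1:63773522-63775373) at 17.3, 52.7 and 82.6 in 17. ADGRL3, an adhesion G protein-coupled receptor, stood at 9.29, 54.0 and 78.7, and UNC5C at 7.18, 49.1 and 77.8, each in 17 libraries. FSTL1 (chr3:120450136-120451197) was called in all 18 other libraries, at 4.41, 48.3 and 61.3. Each of these regions was thus a mid-list peak in a typical other library and stood well below that in at least 1.

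Further gene-end regions chosen by the same list order were those at TMEM229A, GLT1D1, HPS5 (a subunit of the BLOC-2 complex of lysosome-related organelles), CCDC169, NPAS3 (a neuronal transcription factor), PKIA (an inhibitor of protein kinase A), NID1 (a basement membrane protein), ZNF763, SPINK6 (a protease inhibitor), PABPC4L and SLC26A5, with median percentiles of 42.8 to 60.1. The other gene-end regions had median percentiles of 21.1 to 42.2. Among these, MSR1, a macrophage scavenger receptor, was called in 17 other libraries at 9.29, 41.8 and 68.5, and CTSC, a lysosomal protease, in 15 at 13.8, 30.6 and 53.7. MSR1 and CTSC are named after their values were seen. The gene-end region at CNTNAP3B lies in a part of chromosome 9 with near-identical gene copies, so where its reads belong is uncertain.

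The 38 regions called in all 18 other libraries are the sharpest contrast with SORL1-A528T. They are 0.131% of the 28923 autosomal regions called in all 18, of which 205 were called in 1, 4125 in 2 and 24555 in all 3 SORL1-A528T libraries. Of the 38, 2 lay at a gene end, 16 inside gene spans and 20 outside. Inside spans, the highest in list order was in CADM2, a synaptic adhesion molecule (chr3:85504050-85505659), at percentiles 31.3, 72.8 and 84.8. The next was in the span of TAS2R1, a bitter taste receptor (chr5:9712616-9713684), at 21.6, 72.7 and 85.6. DACT1 (chr14:58637028-58639353) followed, at 0.472, 60.9 and 75.2, and was thus among the last peaks of 1 list. LAMA2, a laminin chain, had 8.45, 52.9 and 67.8. The next in order were ZFHX3, NKAIN2, PTCHD4, FSHR, KAT2B and RBMS3.

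Outside gene spans, the highest of the 38 lay 8.72 kb from WWC1, a Hippo pathway scaffold (chr5:168281913-168282929), at 8.30, 65.4 and 77.5. A region with no gene within 100 kb (chr11:43009280-43010957) stood at 25.5, 62.9 and 80.2. The region 40.1 kb from CYLD, a deubiquitinase that restrains NF-kB signalling (chr16:50842016-50843121), stood at 16.6, 61.3 and 75.9. The region 11.1 kb from RGS4, which shortens G protein signals (chr1:163056450-163057744), stood at 10.9, 58.9 and 77.8. The region 22.02 kb from ODF2L had 21.2, 56.5 and 68.4. In each of these regions the place varied widely over the other libraries.

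The 409 regions with a gene within 100 kb belong to 383 nearest genes, and 360 genes had a single region. There were 20 genes with 2 regions and 3 genes with 3, namely COL4A1 (3 of 6 common regions), a basement membrane collagen, GPC6 (3 of 21), a glypican, and PDE4D (3 of 28), a cAMP phosphodiesterase. Along the chromosomes the regions were mostly alone. When regions under 100 kb apart were joined, 63 of the 552 fell into 30 runs of at most 3, and 489 stood alone. Between the members of these runs lay 88 other regions, and 45 of them (51.1%) were called in at least 1 SORL1-A528T library. Of all 160166 autosomal regions, 74555 were called in no SORL1-A528T library. The longest run was at COL4A1 (chr13:110054865-110161961, 107 kb), with 3 missing regions and 6 others between them, 3 of which a SORL1-A528T library called. The nearest SORL1-A528T peak lay a median of 8.28 kb away, within 1 kb for 36 regions (6.52%) and within 10 kb for 301 (54.5%). The missing regions thus stood mostly alone or in runs of at most 3. The runs and distances were not compared with those of other regions.

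By chromosome, the share of common regions that were missing was highest on chromosomes 4 (1.69%), 8 (1.67%), 18 (1.66%) and 13 (1.55%). It was lowest on chromosome 17, with 1 of 1187 (0.0842%), and chromosome 19, with 3 of 1214 (0.247%). Chromosomes 4, 8, 18 and 13 have 3.43 to 4.03 common regions per protein-coding gene, and chromosomes 17 and 19 have 1.02 and 0.837.

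Gene lists of microglia, Alzheimer's disease and endosomal sorting held 0 to 2 missing regions each, and with so few common regions such counts cannot be told from the 1.20% of all. The lists were chosen with earlier results of these data known, and each count is a description. Of 68 common regions nearest to 23 homeostatic microglia genes, 0 were missing, and 0 of 52 nearest to 19 disease-associated microglia genes. Outside the lists, the macrophage genes MSR1 and MPEG1, a perforin-like protein, each had 1 missing region, and they are named after their values were seen. Among 183 regions nearest to 38 genes of Alzheimer risk loci, 1 was missing (0.546%), inside WWOX, an oxidoreductase. Of 150 regions nearest to 30 NF-kB and inflammatory genes, 2 were missing (1.33%), those near CYLD and near CCL20, the ligand of the chemokine receptor CCR6. Of 121 regions nearest to 27 endosomal sorting genes, 1 was missing (0.826%), 52.5 kb from SORCS1, a receptor of the SORL1 family.

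The list of 50 synaptic adhesion molecules and neuronal receptors held 15 of 481 regions (3.12%), at 15 genes with 1 region each. CADM2, called in all 18 other libraries, stood highest. The axon guidance receptors ROBO1 and ROBO2, the synaptic organiser LRRC4C and the neuregulin receptor ERBB4 had regions called in 17 other libraries, with median percentiles of 39.1 to 47.8. CNTNAP2, a neurexin relative, and DSCAM, an adhesion molecule, had 16. The remaining 8 genes, called in 15, were the adhesion molecules CNTN3, NTM and NLGN1, the complement-control protein CSMD1, the glutamate receptor GRM5, the neuregulins NRG1 and NRG3 and the phosphatase PTPRT. Of these 15 regions, 13 lay inside gene spans, that at CNTN3 at a gene end and that of DSCAM 86.2 kb away.

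The 7 lists of markers of other cells together held 2 missing of 147 common regions (1.36%), a share near the 1.20% of all. These were 1 of 20 mesenchymal regions (5.00%), 57.1 kb from FN1 (fibronectin), and 1 of 29 endothelial regions (3.45%), 95.6 kb from CDH5 (VE-cadherin). None stood among 14 pluripotent, 16 erythroid, megakaryocyte and mast cell, 24 neural, 30 monocyte and 14 lymphocyte regions. At gene ends, 20, 15 and 21 of 23 homeostatic microglia genes had a called region in SORL1-A528T replicates 1, 2 and 3, against 21 in all others of replicate 1, 18 to 20 in replicate 2 and 20 to 21 in replicate 3; TMEM119 and SALL1 had none in any library. For synaptic genes the counts were 19, 15 and 19 of 50, against 19 to 25, 16 to 23 and 22 to 27. For pluripotent genes they were 2, 0 and 2 of 11, against 2 to 5, 0 to 2 and 3 to 4, with POU5F1 and NANOG at 0 in every library. For mesenchymal genes they were 7, 4 and 5 of 12, against 5 to 7, 1 to 6 and 7 to 8. Neural genes were not low in replicates 1 and 3, with 6, 3 and 5 of 12, against 5 to 6, 4 and 4 to 5. The low replicate 2 counts were not confined to these lists. They were 20 of 30 NF-kB and inflammatory genes, against 24 to 28, and 16 of 27 endosomal sorting genes, against 22 to 25. The part of other cells in the missing regions was not tested.

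Depth and list length differ between the libraries, and SORL1-A528T had the shortest list at each replicate number. Its lists held 69732, 39736 and 78438 peaks in replicates 1, 2 and 3, against 70130 to 96344, 46991 to 67861 and 84066 to 102891 in the other lines. Its share of tags in peaks, per the file headers, was 55.32%, 73.62% and 39.38%, against 45.71% to 57.59%, 66.27% to 73.87% and 58.44% to 74.25%. Its tags numbered 56.5, 14.2 and 52.9 M, against 60.6 to 67.4, 12.8 to 17.5 and 32.6 to 50.3 M. The fragment length estimated by the peak caller was 494 bp in SORL1-A528T replicate 2, against 136 to 262 bp in the other replicate 2 libraries. To treat every line alike, each library was set against the autosomal regions called in at least 15 of the 18 libraries of the other lines, 42325 to 45954 regions by line; this measure was added after seeing the data. SORL1-A528T did not call 5.17%, 33.7% and 3.45% of them in replicates 1, 2 and 3, the 552 included. The other lines did not call 0.112% to 3.42%, 6.10% to 17.9% and 0.0402% to 0.449%. SORL1-A528T was thus highest at each replicate number, where it also had the shortest list. The part of depth and list length in this was not tested beyond the settings given next.

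**Figure D2:**
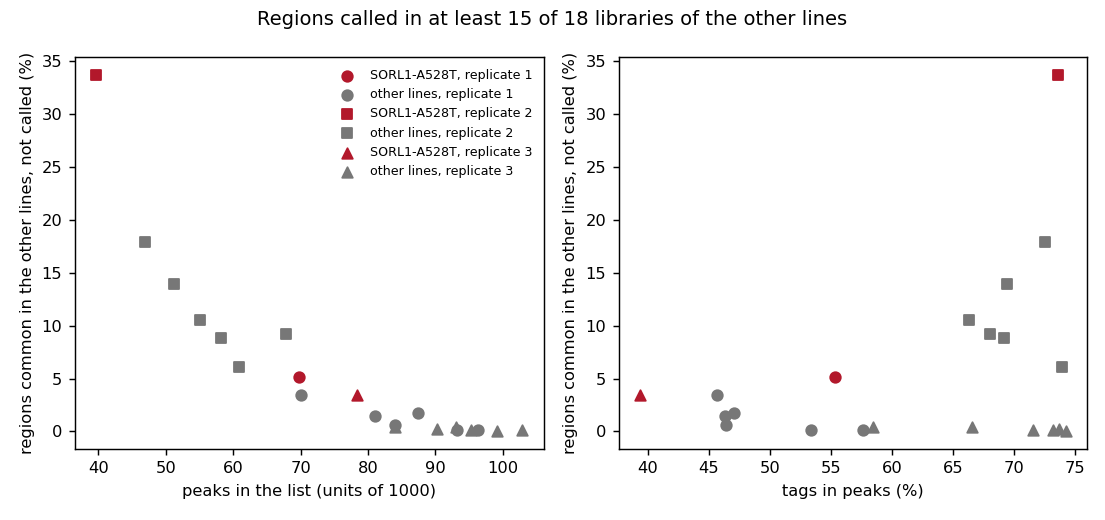
Share of autosomal regions called in at least 15 of the 18 libraries of the other lines that a library did not call (y axis, %), against the number of peaks in its list in units of 1000 (left) and the share of its tags in peaks in % (right), 1 point per library, with SORL1-A528T in red and marker shape for the replicate number. The SORL1-A528T libraries, at 5.17%, 33.7% and 3.45%, stand highest within their replicate number and have its shortest lists.

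The 18 other libraries also left out some of the 552 regions, up to 3 per region by the rule. WT replicate 2 left out 321, TREM2-KO replicate 2 183, INPP5D SNP replicate 2 182, TREM2-R47H replicate 2 120, CD33 SNP replicate 2 106 and SORL1-KO replicate 2 90. Outside replicate 2, TREM2-KO replicate 1 left out 104 and INPP5D SNP replicate 1 40, and the others 0 to 15. Of 1206 such omissions 1002 (83.1%) fell in replicate 2, the shallow libraries, and 333 regions (60.3%) were left out by replicate 2 libraries alone. This was not particular to the missing regions. Of the other common regions, replicate 2 libraries of the other lines left out 5.74% to 17.5%. Those of replicate 1 left out 0.0639% to 2.94% and those of replicate 3 0.0264% to 0.227%. No region was left out by all 3 libraries of another line.

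The missing regions were narrow. Their median width was 904.5 bp, with quartiles of 807 and 1101.5 bp and a range of 595 to 3944 bp, against a median of 1285 bp and quartiles of 984 and 1912 bp for the other common regions. In list order they stood at median percentiles of 27.4 to 47.5 in replicate 1, 18.7 to 31.4 in replicate 2 and 40.4 to 50.5 in replicate 3 of the other lines. The other common regions stood at 65.8 to 74.9, 57.2 to 66.8 and 71.3 to 76.5 in the same lists. The missing regions were thus lower in the list than the other common regions in each of the 18 libraries.

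This held at equal recurrence. Among regions called in all 18 other libraries, those with 0, 1, 2 and 3 SORL1-A528T calls had median percentiles of 48.6, 51.6, 64.7 and 82.7, and median widths of 948.5, 999, 1187 and 1578 bp. Among regions called in 15 others the percentiles were 36.3, 38.9, 46.2 and 46.5, and the widths 874, 884, 968 and 964 bp. The share of regions with 0 SORL1-A528T calls fell along recurrence. It was 5.50% of those called in 15 others, 2.94% at 16, 1.31% at 17 and 0.131% at 18.

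**Figure D3:**
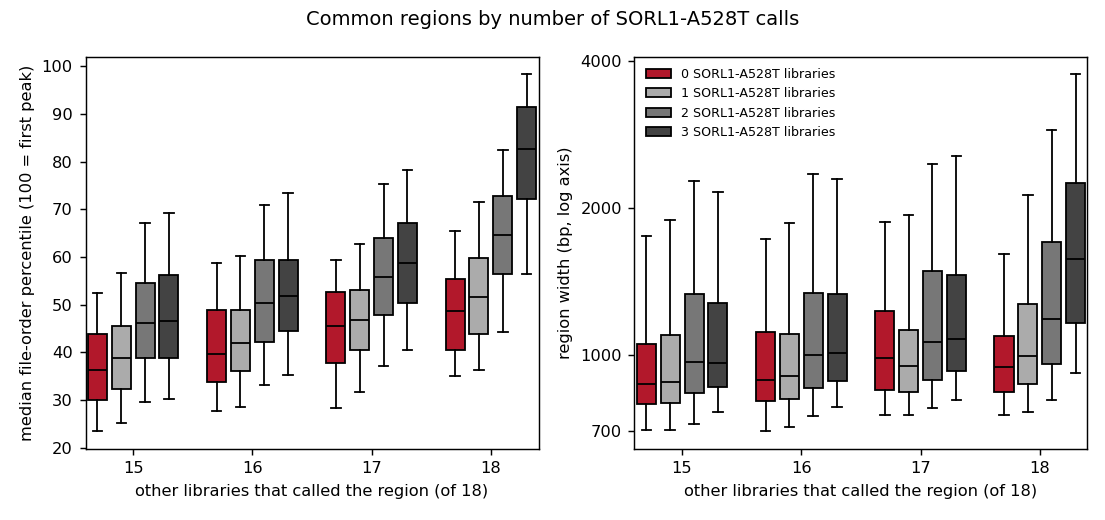
Median file-order percentile over the other libraries (left) and region width in bp on a log axis (right) of common autosomal regions, by the number of other libraries that called them (x axis) and of SORL1-A528T libraries (colour). Boxes show quartiles and median, and whiskers the 5th to 95th percentile; regions with 0 SORL1-A528T calls (red) and with 1 lie lower than those with 2 or 3 at each recurrence.

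List order was then set against list length. A missing region has a place only in the lists that called it, so the shares are of the missing regions a library called. Of these, 0.223% to 17.2% lay beyond the length of the SORL1-A528T list over the 6 other replicate 1 libraries. The share was 42.4% to 70.5% over replicate 2 and 1.10% to 12.01% over replicate 3, each against the SORL1-A528T list of the same number. Of all peaks in these lists, 0.5675% to 27.6%, 15.4% to 41.4% and 6.69% to 23.8% lay beyond that length in replicates 1, 2 and 3. Each region was then judged by its median place over those of the 6 libraries that called it, so libraries that left it out do not enter. By this, 16 of the 552 lay beyond that length in replicate 1, 316 in replicate 2, 1 in replicate 3 and 0 in all 3. A total of 232 lay within it at every replicate number. Most missing regions in replicates 1 and 3 of the other lines thus stood earlier in the list than the place where the SORL1-A528T list ends.

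The same rule was applied to each line in turn. It found 552 regions for SORL1-A528T, against 87 for TREM2-R47H (0.202% of its common regions), 9 for TREM2-KO (0.0207%), 17 for SORL1-KO (0.0398%), 11 for INPP5D SNP (0.0252%), 1 for CD33 SNP (0.00236%) and 3 for WT (0.00684%). The 87 of TREM2-R47H were like the 552 in form, with a median width of 907 bp, a gene-end share of 4.60% and a median percentile of 39.5. When the lists of each replicate number were limited to the length of its shortest, which leaves the SORL1-A528T lists whole, the rule found 102 for SORL1-A528T (0.287%), 79 for TREM2-R47H (0.227%), 10 for TREM2-KO (0.0285%), 4 for SORL1-KO (0.0116%), 2 for INPP5D SNP (0.00575%), 2 for CD33 SNP (0.00578%) and 0 for WT (0.00%). All 102 were among the 552 (18.5%), and shortening only the other lists can hardly add a region to them. With all 21 lists limited to 39736 peaks it found 253 for SORL1-A528T (0.914%), 215 for TREM2-R47H (0.791%), 36 for TREM2-KO (0.132%), 30 for SORL1-KO (0.111%), 12 for INPP5D SNP (0.0441%), 4 for CD33 SNP (0.0148%) and 6 for WT (0.0222%). With the first 50% of each list it found 360 for SORL1-A528T (1.48%), 75 for TREM2-R47H (0.328%), 4 for TREM2-KO (0.0175%), 14 for SORL1-KO (0.0619%), 1 each for INPP5D SNP (0.00432%) and CD33 SNP (0.00444%) and 0 for WT (0.00%). SORL1-A528T thus had the most regions under all 4 settings, and TREM2-R47H came next in each. The matched setting was chosen after seeing the data.

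**Figure D4:**
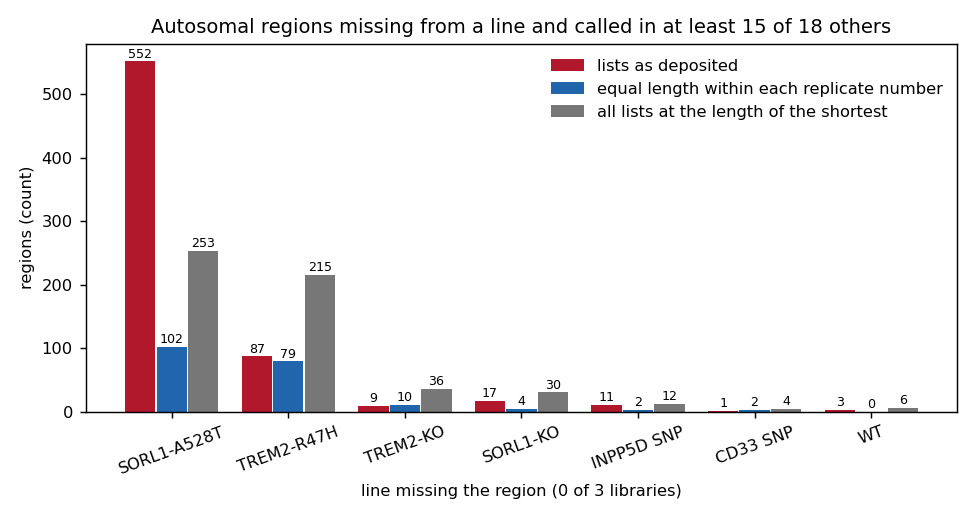
Number of autosomal regions missing by the rule, 0 of 3 own libraries and at least 15 of the 18 others (y axis), for each line (x axis), with lists as deposited (red), with lists of each replicate number at the length of its shortest (blue) and with all lists at the length of the shortest (grey). SORL1-A528T has 552, 102 and 253, TREM2-R47H 87, 79 and 215, and WT 3, 0 and 6.

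The 102 regions that stayed missing with lists matched by replicate number stood higher than the 552 as a whole. The setting itself brings this about. It shortens only the lists of the other lines, so it keeps regions that stand high and recur often in them. Their median percentile was 50.4 and their median width 1047.5 bp. They included 27 of the 38 called in all 18 other libraries. Of the 102, 9 lay at a gene end, among them those of PCDH7, ACSS3, NAV2, CCDC169, ROR1, ZNF763, SPINK6, FSTL1 and MSR1, 37 lay inside gene spans and 56 outside. DACT1, the WWC1 and CYLD regions and those of the synaptic genes CADM2, ERBB4, LRRC4C and CNTNAP2 stayed too, as did the region near CCL20. With all lists at 1 length, 6 of the 552 stayed missing (1.09%). These were the regions in CADM2, TAS2R1 and ARMH4 and those near WWC1, CYLD and AMN1, and they made up 2.37% of the 253 found.

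Regions around the missing ones were described in the same libraries. They were picked for lying near regions with 0 SORL1-A528T calls, so any signal shared along the chromosome lowers them in SORL1-A528T, and their values carry no test. The depth-adjusted call of a region in a library is its call (1 or 0) minus the mean call, in that library, of autosomal regions outside the 552 that were called in the same number of the 21 libraries. It was averaged over the 3748 regions outside the 552 that lay within 50 kb of a missing region. It was −0.0495, −0.00466 and −0.0445 in SORL1-A528T replicates 1, 2 and 3, against −0.0391 to 0.0143, 0.00605 to 0.0271 and 0.000741 to 0.0276 in the other lines. The SORL1-A528T library lay below all 6 others at each replicate number, although 4 of the 18 others lay below SORL1-A528T replicate 2. The mean was −0.0329 ± 0.0246 in SORL1-A528T (SD, n = 3) and 0.00548 ± 0.0221 in the others (SD, n = 18), a difference of −0.0383.

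The difference was −0.0583 within 10 kb and −0.0284 within 200 kb, and thus smaller in the wider windows. Around the regions missing from another line the same value differed by line. It was −0.0481 for TREM2-R47H minus the others, over 583 regions near its 87 missing regions, and −0.0343 for TREM2-KO (80 regions near 9). For SORL1-KO it was −0.0153 (105 near 17) and for INPP5D SNP −0.000363 (77 near 11). WT had 0.0896, above the others, over only 14 regions near 3, and CD33 SNP had 0 over 2 regions near 1. The low value near missing regions was thus not larger in SORL1-A528T than in TREM2-R47H. For location classes as a whole, over regions outside the 552, those outside gene spans were split by whether a gene span lay within 100 kb. SORL1-A528T minus the others was 0.00769 at gene ends and −0.00274 inside gene spans. Outside gene spans it was −0.00223 with a gene span within 100 kb and 0.00471 with none. The exact permutation p was 0.711, 0.558, 0.773 and 0.853 in this order (two-sided, 3 against 18 libraries). No location class as a whole thus gave a difference past the threshold. The depth adjustment removes each library's mean over these same regions, so a loss shared by all classes cannot show here.

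**Figure D5:**
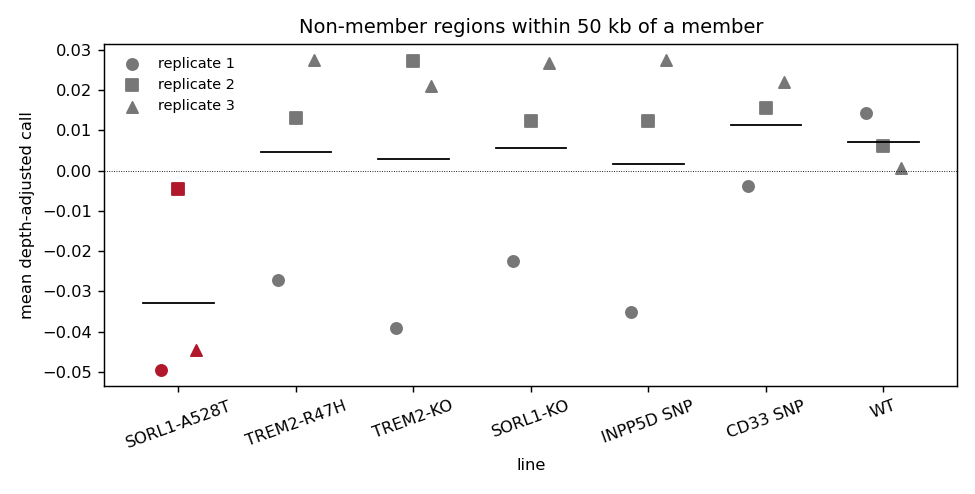
Mean depth-adjusted call (y axis) of the 3748 regions outside the 552 within 50 kb of a missing region, per library, by line (x axis); points are libraries, shape gives the replicate number and bars the mean of a line. SORL1-A528T (red) averages −0.0329, and each of its libraries lies below the 6 others of its replicate number.

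Per gene, the regions outside the 552 gave no call. Over 8035 genes with at least 5 such regions, limma with Benjamini-Hochberg adjustment called 0 genes (0.00%) for SORL1-A528T against the mean of the 6 other lines, with a smallest adjusted p of 0.473. At an unadjusted p under 0.05 it gave 214 lower and 215 higher genes (2.66% and 2.68%). On simulated calls limma found 28 of 92 genes (30.4%) whose call chance in SORL1-A528T was set lower by a change of −0.5. It found 9 of 93 (9.68%) at −0.3. Call chances could not fall below 0, so the changes reached were smaller, with median estimates of −0.240 and −0.160. Simulated regions were drawn independently of each other, which real neighbouring regions need not be. The test can thus miss changes of the size reached in the simulation, and 0 called genes does not mean that no gene differs. Of the 383 genes nearest to missing regions 353 were tested. Their median difference was −0.0335, against −0.00497 over all genes tested, 257 (72.8%) lay below 0, against 53.1%, and 16 were lower and 0 higher at an unadjusted p under 0.05 (4.53% and 0.00%). These genes were chosen through calls of the same libraries and neighbouring regions, so no test of the set is given.

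The 4 genes given next were named after their values were seen, and none passed the adjusted threshold. LGI2, a secreted leucine-rich repeat protein with the smallest unadjusted p of the 353, averaged −0.220 ± 0.156 in SORL1-A528T (SD, n = 3) and 0.0367 in the others over 8 regions, a difference of −0.257 (SE 0.0818, limma adjusted p = 0.813). WWC1, with 2 missing regions, averaged −0.124 ± 0.00367 and 0.0206 over 13 regions (difference −0.144, SE 0.0618, limma adjusted p = 0.898). NAV2 averaged −0.0794 ± 0.0336 and 0.0132 over 54 regions (difference −0.0926, SE 0.0397, limma adjusted p = 0.898). COLEC12, a scavenger receptor, averaged −0.0811 ± 0.0134 and 0.0135 over 27 regions (difference −0.0946, SE 0.0400, limma adjusted p = 0.898). In all 4 genes, each of the 3 SORL1-A528T libraries lay below the mean of the others. The genes were picked with these values known, so this carries no weight. Genes such as FAM110B had a smaller unadjusted p than WWC1, NAV2 and COLEC12. At ACP6 (difference 0.111) and DGKG (0.0705), also nearest to missing regions, 0 of the 3 libraries lay below that mean.

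The gene named in the title of these libraries held no missing region. With so few common regions, this cannot be told from the 1.20% of all common regions. Of 37 autosomal regions nearest to SORL1, 15 were common and 0 of these were missing; the 3 SORL1-A528T libraries made 41.4% of the possible calls and the 18 others 56.3%. Over all 160166 autosomal regions the shares were 36.4% and 45.8%, so the lower share in SORL1-A528T was not seen at SORL1 alone. The depth-adjusted call over the 37 regions averaged −0.0381 ± 0.0260 in SORL1-A528T (SD, n = 3) and 0.00635 in the others (difference −0.0445, SE 0.0443, limma adjusted p = 0.947). Of 4 regions nearest to TREM2, which the genotype label names, 2 were common and 0 missing, again too few to tell from 1.20%. SORL1-A528T made 58.3% and the others 63.9% of the possible calls at TREM2. A peak list gives no base at the edited codon, so neither value checks the labels.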

How the data were processed

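The input was 1 ATAC-seq peak list for each of 21 libraries. The submitters' processing notes name cutadapt 1.18, STAR 2.7, HOMER 4.10 and DESeq2. The use of DESeq2, the genome build and any transposase shift are not given in the sources used here. HOMER called peaks per library with no control, per the file headers, at a peak size of 500, a minimum distance of 1000, a local fold of 4.00 over 10000 bp and a local Poisson p of 1.00e-04. The deposited score is 1 for every peak, so only positions and file order were used. Peaks on chromosomes Y and M (0.0821% of peaks) stayed in the list lengths, the list order and the 166893 merged regions. They were left out of every set of regions described.

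Coordinates follow the deposited lists and start at 1. Genes (19970 protein-coding spans) and promoter windows came from RefSeq GRCh38.p14. Regions called by all 21 libraries covered 33.3% of 33557 gene starts, against 2.13% and 2.25% of the same starts moved 10 kb up or down. Gene lists matched in full but for 1 pluripotent gene.

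Python 3.11.15 with scipy 1.17.1 and R 4.3.3 with limma 3.58.1 were used. The tests were the exact permutation of 3 against 18 libraries (1330 splits) for location classes and limma over 8035 genes. Limma was tried on simulated data, where it called 0 lower and 4 higher of 7340 unchanged genes and missed most changed ones. The planned permutation test of regions near missing ones is not reported, as the same calls chose those regions. Named regions were up to 20 gene-end regions by median list percentile, up to 10 inside and 10 outside gene spans among those called in all 18 other libraries, and every region whose nearest gene is in a list; runs under 100 kb are given by count and by the longest. Alternatives changed overlap, merging, recurrence, list length, window, depth adjustment, the replicate block and the libraries used. The regions, lists and tests were chosen with earlier results of these data known. Replicate numbers were not taken to pair libraries.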

Additional observations from a re-analysis of the deposited data

Results flagged for a closer look

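Each library value was compared with the 6 others of the same replicate number, over 22 groups of 7 libraries, and 6 values lay far from the rest by Dixon's criterion. Chance flags about 1 in 20 groups. SORL1-A528T replicate 3 had a mean depth-adjusted call of −0.0445 over regions within 50 kb of a missing region, and the nearest other replicate 3 library had 0.000741. The same library did not call 2.27% of the other common regions, and the next of replicate 3 did not call 0.227%. For both of these values the regions were chosen through the calls of SORL1-A528T or of the other lines, which by itself sets SORL1-A528T apart, so they carry no weight as outliers. Each library was also set against regions called in at least 15 of the 18 libraries of the other lines, a rule applied alike to every line. SORL1-A528T replicate 3 did not call 3.45% and the next of replicate 3 0.449%. SORL1-A528T replicate 2 did not call 33.7% and the next of replicate 2 17.9%. For SORL1-A528T these regions include the missing ones, so its values hold the calls that chose them and are not independent flags. SORL1-A528T replicate 2 had an estimated fragment length of 494 bp, and the next of replicate 2 had 262 bp. INPP5D SNP replicate 3 had 32.6 M tags, and the next of replicate 3 had 44.6 M.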

How the results depend on the processing

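The number of missing regions moved with nearly every setting that changes recurrence or list length. It was 285, 127 and 38 when at least 16, at least 17 or all 18 other libraries were required, 253 with all lists at the length of the shortest, 360 with the first 50% of each list and 102 with lists matched by replicate number, a setting chosen after seeing the data. It was 534 when peaks had to cover at least 50% of a region and 547 when peaks up to 500 bp apart were merged, and 369 (66.8%) and 544 (98.6%) of the 552 were among them. Leaving out libraries gave 285 to 3276: 1295, 639 and 1835 without SORL1-A528T replicate 1, 2 and 3, 3276 without all replicate 2 libraries, and 285 to 476 without 1 library of another line. For the other lines, lists at the length of the shortest gave 4 regions for CD33 SNP, 215 for TREM2-R47H, 30 for SORL1-KO, 36 for TREM2-KO and 6 for WT, and lists matched by replicate number gave 2 for CD33 SNP, 2 for INPP5D SNP, 4 for SORL1-KO and 0 for WT. Without each replicate number in turn the counts were 155 to 502 for TREM2-R47H, 22 to 515 for TREM2-KO, 70 to 388 for SORL1-KO, 51 to 305 for INPP5D SNP, 3 to 36 for CD33 SNP and 10 to 67 for WT. The difference at neighbouring regions, given with no test, was −0.128 without depth adjustment, −0.0537 to −0.0265 with 1 library left out, and −0.0794 to −0.0284 over its other alternatives; the replicate block leaves it at −0.0383. The cause of these shifts was not tested. Limma called 0 genes in every alternative, the replicate block included. The numbers do not pair libraries by the labels, although 18 of 21 libraries correlated best with their own number.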

Other observations

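Chromosome X stood outside the rule used above. Of 1846 regions on X called in at least 15 of the 18 other libraries, 39 (2.11%) were called in 0 SORL1-A528T libraries, against 1.20% on autosomes. Of these, 7 lay in 1 stretch of 335 kb (chrX:21697998-22032768) with SMPX, a muscle protein, MBTPS2, a membrane protease, SMS, spermine synthase, and PHEX, an endopeptidase. Of its 31 regions, SORL1-A528T replicates 1, 2 and 3 called 29.0%, 25.8% and 29.0%, and the other libraries 29.0% to 80.6%, with a median of 62.9%. The lowest of the others was WT replicate 2, so the groups touch. This stretch was chosen after its values were seen, and no test is given.

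Regions with the opposite pattern were few in SORL1-A528T. Autosomal regions called in all 3 libraries of a line and at most 3 of the 18 others numbered 10 for SORL1-A528T, against 144 for TREM2-R47H, 71 for TREM2-KO, 36 for SORL1-KO, 22 for INPP5D SNP, 108 for CD33 SNP and 65 for WT. SORL1-A528T also had the fewest regions called in all 3 libraries, 31412, against 41074 to 51181 in the other lines.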
